A study of Mus musculus with 6 samples.

Results

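The genes described here encode the chains of the receptors that bind the Fc part of IgE and IgG. They are Ms4a2, Fcer1a, Fcer1g, Fcgr1, Fcgr2b, Fcgr3, Fcgr4, Fcgrt and Fcer2a, 9 of the 18193 genes read on the arrays. They were chosen by symbol, as the probe sets that the platform annotation gives exactly 1 gene symbol. This found 16 probe sets, 5 of them for Fcgr2b, 2 each for Ms4a2, Fcgr1 and Fcer2a and 1 for each of the other genes. No probe set that lists several symbols held any of these names.

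Fc receptors connect antibodies to cells. The high-affinity IgE receptor of mast cells and basophils is built from an alpha chain that binds IgE (Fcer1a), a beta chain with several membrane spans that amplifies the signal (Ms4a2), and a dimer of the gamma chain (Fcer1g), which carries the activation motif ITAM and also serves the activating IgG receptors Fcgr1, Fcgr3 and Fcgr4. Fcgr2b carries the inhibitory motif ITIM instead and dampens signals from the activating receptors, Fcgrt is the neonatal Fc receptor that rescues IgG from lysosomes, and Fcer2a is CD23, the low-affinity IgE receptor, a lectin best known from B cells.

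The cells were a single haematopoietic progenitor clone of myeloid type, C6, on a Rosa26rtTA C57BL/6J background, in which a vector with a tetracycline-controlled Evi1 and EGFP produces codon-optimized murine Evi1 under doxycycline. The doxycycline group held 3 arrays of cells under 1 µg/ml of the drug, and the withdrawal group 3 arrays of cells 48 h after its removal. Both groups grew with 20 ng/ml of interleukin 3 and with stem cell factor, Flt3 ligand and interleukin 11, each at 50 ng/ml. The comparison asks what differs once Evi1 is no longer induced. Doxycycline itself also differed between the groups, and no arrays of cells without the Evi1 vector were included. Effects of the drug and of Evi1 therefore cannot be told apart. All cells come from 1 clone, and the labels do not say that replicates were separate cultures, so the p-values speak only of variation among these arrays, and that variation may be technical.

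Values are log2 expression after RMA, a method that corrects the background, brings the arrays to a shared distribution and summarises the probes of a set. Array medians ran from 5.22 to 5.27. Withdrawal replicate 3 (score -22.99) and doxycycline replicate 1 (score -11.43) lay apart from the other arrays on the second principal component of the 22518 brighter probe sets. This component held 31.9% of the variance. The other scores ran from 2.10 to 12.45, so doxycycline replicate 1 was set apart by its sign and not by its size. Results are also given without both arrays. That fit also has fewer arrays, so calls lost in it cannot be put down to those arrays alone. The induced gene could not be checked on these arrays: all 3 probe sets of its gene, Mecom, lay below the median of all probe sets in both groups with overlapping values, and whether they bind the codon-optimized transcript was not tested. Differences are withdrawal minus doxycycline with the standard error of limma (n = 3 arrays per group), and a gene is said to have risen or fallen when its limma adjusted p over 45037 probe sets was below 0.05. In such bulk RNA, more cells of a type and more RNA per cell cannot be told apart.

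After withdrawal, 3 of the 9 genes rose and 0 fell with each gene taken at its brightest probe set (that of highest mean), namely the IgE receptor beta chain Ms4a2 and the activating IgG receptors Fcgr3 and Fcgr4. Of all 18193 genes, 1.2% were called higher and 1.57% lower. Counted by probe set, 4 of 16 were called higher against 0.79% of all probe sets. The 3 withdrawal arrays lay above the 3 doxycycline arrays for 6 of the 9 genes (12.4% of all genes) and for 11 of the 16 probe sets (10.2% of all probe sets). The median difference was 0.25 over the 9 genes and 0.01 over all genes. These comparisons are descriptive, since the 9 genes were chosen with earlier results of these data known. Of the 9, 1 lay below the median of all probe sets on every array, against 6572 of all 18193 genes. Without both arrays that stood apart, 1 of the 9 genes, Ms4a2, was called.

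**Figure D1:**
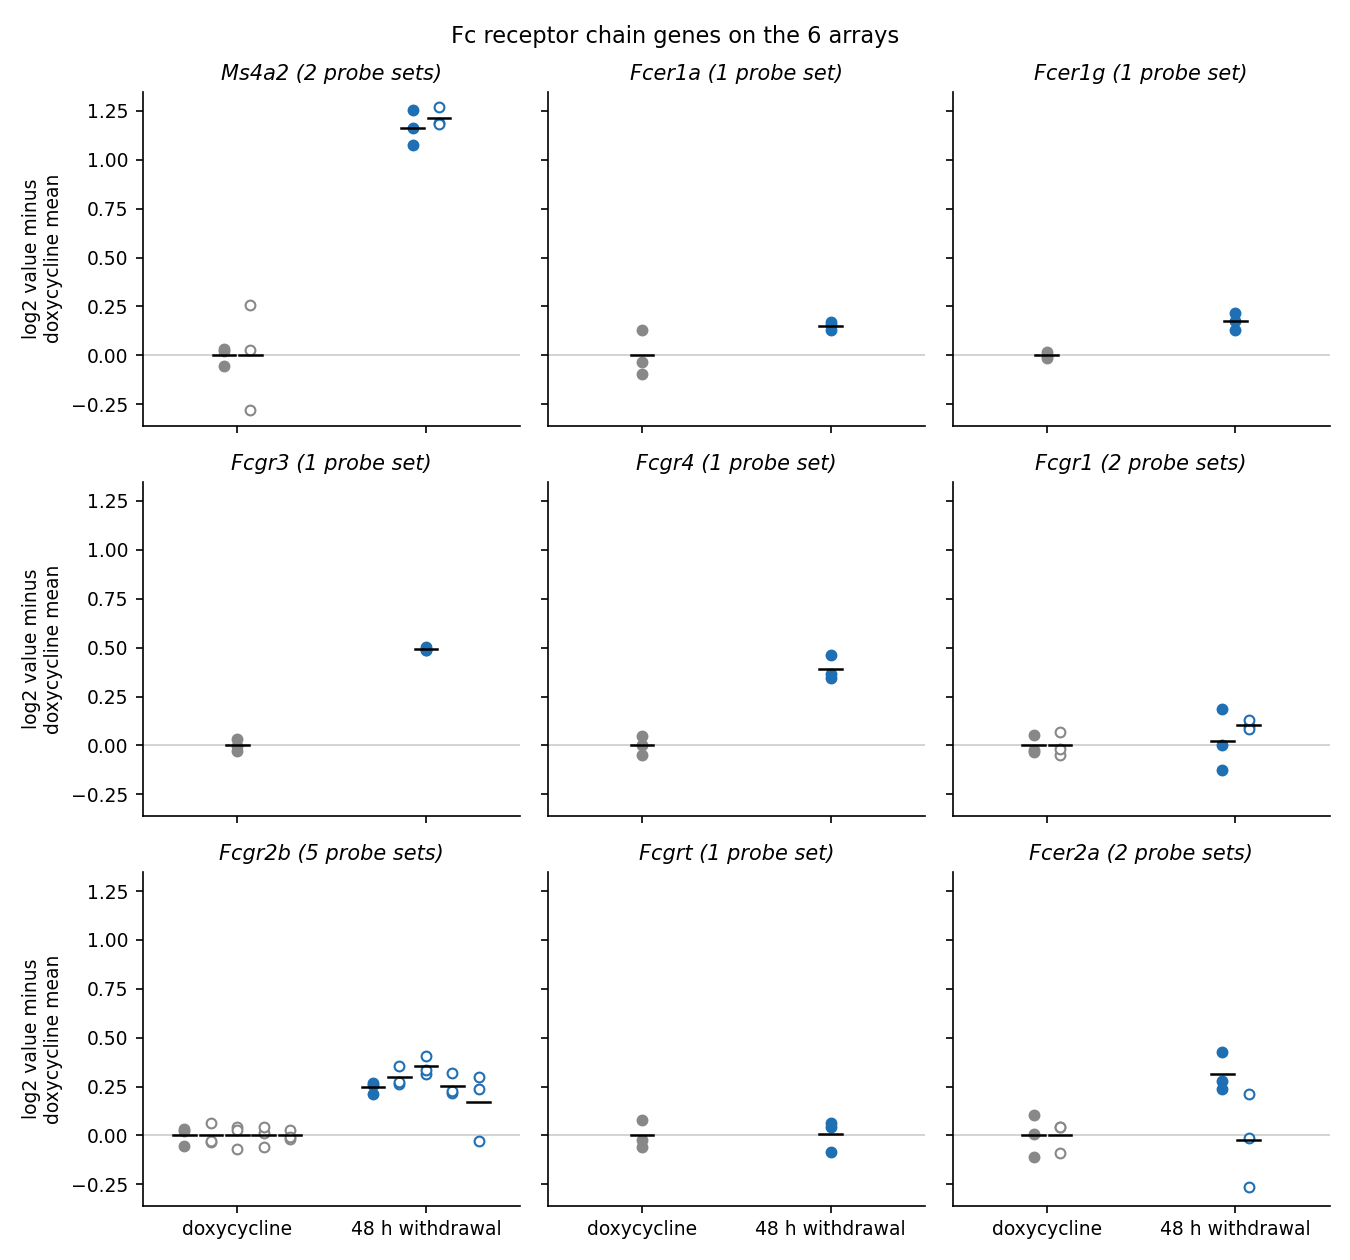
Log2 value of each probe set minus its mean under doxycycline (vertical axis, same scale in each panel) on the 3 doxycycline arrays (grey) and the 3 withdrawal arrays (blue). Filled points are the probe set of highest mean for the gene, open points its other probe sets, and bars are group means. Ms4a2 stands about 1.16 higher after withdrawal, Fcgr3 0.49 and Fcgr4 0.39 higher, while Fcgrt stays around its doxycycline mean.

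Ms4a2, which encodes the signal-amplifying beta chain of that IgE receptor, had the largest difference of the 9 genes. Its probe set of highest mean (1443264_at) read 8.65, 8.73 and 8.74 under doxycycline and 9.78, 9.87 and 9.96 after withdrawal. The groups were far apart, with the lowest withdrawal array more than 1 unit above the highest doxycycline array. The difference was 1.16 ± 0.07, a 2.24-fold rise (95% interval 1.99 to 2.52, limma adjusted p = 5.23e-04). The other probe set (1421475_at) read 6.58, 6.81 and 6.27 under doxycycline, a wider spread, and 7.82, 7.74 and 7.74 after withdrawal. It gave nearly the same difference, 1.21 ± 0.13 (limma adjusted p = 0.00520). Without both arrays that stood apart, the first probe set still passed (1.09, limma adjusted p = 0.0253) and the second did not (1.24, limma adjusted p = 0.122).

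The other chains of the IgE receptor did not pass. Fcer1a, the IgE-binding alpha chain, read 9.24, 9.30 and 9.47 under doxycycline and 9.51, 9.47 and 9.49 after withdrawal. The withdrawal arrays lay close together, and doxycycline replicate 3 reached into their range. The difference was 0.15 ± 0.08 (95% interval -0.03 to 0.33, limma adjusted p = 0.447). Fcer1g, the shared gamma chain, was bright, at 12.83, 12.82 and 12.86 under doxycycline and 12.97, 13.01 and 13.05 after withdrawal. Its groups did not overlap, but the difference was small, 0.17 ± 0.06 (95% interval 0.03 to 0.32, limma adjusted p = 0.260).

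Within each array, the Ms4a2 value was also set against those of its partner chains, as a signed difference with its mean under doxycycline taken as 0, since levels of different probe sets cannot be compared. Ms4a2 minus Fcer1a ran from -0.10 to 0.06 on the doxycycline arrays and from 0.91 to 1.10 after withdrawal. The mean change was 1.01, a gap of 2.02-fold between the readings of the 2 probe sets on these arrays. For Ms4a2 minus Fcer1g the change was 0.99, with doxycycline arrays from -0.05 to 0.04 and withdrawal arrays from 0.95 to 1.04. Both signed differences were higher on 3 of 3 withdrawal arrays than on any doxycycline array. The two-sided exact permutation test gave p = 0.1 for each, the smallest that 3 against 3 arrays allow, and 0.125 after Benjamini-Hochberg adjustment over the 5 pairs examined.

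The start regions of both IgE receptor chains are shown because Ms4a2 rose while its partner Fcer1a did not pass. Each line gives the 250 bases before the RefSeq gene start (GRCm38.p6, minus strand, 5′ to 3′), for Ms4a2 chr19:11623720-11623969 and for Fcer1a chr1:173227230-173227479. Capitals mark a GATA word (AGATAA, the word AGATAG, the word TGATAA or the word TGATAG) or the PU.1 word GAGGAA on either strand, so that TTATCT is AGATAA on the other strand.
Ms4a2: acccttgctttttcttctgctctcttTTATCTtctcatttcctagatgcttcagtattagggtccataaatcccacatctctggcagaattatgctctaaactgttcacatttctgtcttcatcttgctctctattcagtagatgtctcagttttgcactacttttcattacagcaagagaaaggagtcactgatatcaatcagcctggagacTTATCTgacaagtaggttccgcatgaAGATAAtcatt
Fcer1a: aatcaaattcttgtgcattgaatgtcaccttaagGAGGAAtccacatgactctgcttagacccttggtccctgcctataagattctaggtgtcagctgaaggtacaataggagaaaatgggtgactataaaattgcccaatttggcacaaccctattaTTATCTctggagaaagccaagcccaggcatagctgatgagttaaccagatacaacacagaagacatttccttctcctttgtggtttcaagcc
The Ms4a2 window held 3 GATA words, each AGATAA, beginning 224, 37 and 11 bases before the start, and no PU.1 word. The Fcer1a window held 1 GATA word, 92 bases before the start, and 1 PU.1 word at 216 bases. Of 32851 start regions of the same length in the table, 26.5% held at least 1 GATA word and 1.35% at least 3, and 23.3% held the PU.1 word. GATA factors and PU.1 are known regulators of mast cell and myeloid genes, and the first zinc finger domain of Evi1 is known to bind a sequence that contains GATA-like words. A match of letters is a description and shows no binding.

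Among the activating IgG receptors, Fcgr3 and Fcgr4 rose and Fcgr1 did not pass. Fcgr3, a low-affinity receptor found on basophils, mast cells and other myeloid cells, read 12.00, 12.03 and 12.07 under doxycycline and 12.52, 12.52 and 12.54 after withdrawal. Both groups were narrow and did not overlap. The difference was 0.49 ± 0.06, a 1.41-fold rise (95% interval 1.28 to 1.55, limma adjusted p = 0.00942). This call held without withdrawal replicate 1 or 3, and was lost without any other single array (limma adjusted p up to 0.0599) and without both arrays that stood apart (0.47, limma adjusted p = 0.123).

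Fcgr4, a receptor for IgG2 subclasses known from neutrophils and monocytes, read 9.20, 9.15 and 9.25 under doxycycline and 9.56, 9.54 and 9.66 after withdrawal. The groups did not overlap, and the difference was 0.39 ± 0.07, a 1.31-fold rise (95% interval 1.17 to 1.46, limma adjusted p = 0.0375). The call rested on all 6 arrays: the difference stayed between 0.35 and 0.41 when any 1 was left out, but the limma adjusted p rose to between 0.0835 and 0.156, and to 0.210 without both arrays that stood apart.

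Fcgr1, the receptor with high affinity for monomeric IgG, read 7.30, 7.39 and 7.31 under doxycycline and 7.53, 7.21 and 7.34 after withdrawal on its probe set of highest mean. The withdrawal arrays lay on both sides of the doxycycline arrays. The difference was 0.02 ± 0.09 (95% interval -0.19 to 0.23, limma adjusted p = 0.953), and its sign turned when withdrawal replicate 1 was left out (-0.06) or arrays were weighted (-0.05). The other probe set differed by 0.11 ± 0.07 (95% interval -0.05 to 0.26, limma adjusted p = 0.542), with groups that did not overlap.

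The start regions of both IgG receptors that rose are shown next to compare them with the IgE receptor chains. Coordinates are chr1:171059404-171059653 on the minus strand for Fcgr3, at the first of its 2 listed starts, and chr1:171018676-171018925 on the plus strand for Fcgr4 (GRCm38.p6, RefSeq). Lines and capitals are as above, with TTCCTC as the PU.1 word on the other strand.
Fcgr3: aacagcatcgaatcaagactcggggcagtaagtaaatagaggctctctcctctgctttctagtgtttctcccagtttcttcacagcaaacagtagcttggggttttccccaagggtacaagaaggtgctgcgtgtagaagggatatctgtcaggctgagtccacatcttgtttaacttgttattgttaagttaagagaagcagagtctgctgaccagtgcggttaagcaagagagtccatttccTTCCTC
Fcgr4: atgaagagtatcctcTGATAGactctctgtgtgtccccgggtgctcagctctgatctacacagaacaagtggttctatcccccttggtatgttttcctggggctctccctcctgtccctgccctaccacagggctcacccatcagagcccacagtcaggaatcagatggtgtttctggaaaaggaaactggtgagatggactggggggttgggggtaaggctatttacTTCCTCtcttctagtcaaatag
Both windows held 1 PU.1 word close to the start, beginning 6 bases before it in Fcgr3 and 22 bases before it in Fcgr4. Fcgr4 also held 1 GATA word at 235 bases, and Fcgr3 held none. Fcgr1, which did not pass, also held 1 PU.1 word, at 55 bases, and a role of PU.1 at these genes was not tested. The windows of Fcer1g, Fcgr2b and Fcgrt held neither kind of word. Fcer2a held 1 GATA word at each of starts 2 and 3 of its 3 listed starts, and no PU.1 word.

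Fcgr2b, the inhibitory IgG receptor, was higher on the withdrawal arrays at 4 of its 5 probe sets, but none passed. The probe set of highest mean (1435477_s_at) read 12.35, 12.43 and 12.44 under doxycycline and 12.67, 12.67 and 12.62 after withdrawal. The groups did not overlap, and the difference was 0.25 ± 0.06, or 1.19-fold (95% interval 1.07 to 1.31, limma adjusted p = 0.120). Probe set 1435476_a_at lay nearest the threshold, at 0.35 ± 0.07 (limma adjusted p = 0.0502), followed by 1455332_x_at at 0.30 ± 0.07 (limma adjusted p = 0.0822) and 1451941_a_at at 0.26 ± 0.07 (limma adjusted p = 0.130).

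The fifth probe set of Fcgr2b, 1447622_at, was near the floor of the arrays, from 2.65 to 2.98, and its groups overlapped. The gene passed with trend and robust options (limma adjusted p = 0.00164), among the brighter probe sets alone (limma adjusted p = 0.0303) and with the mean of its probe sets (0.26, limma adjusted p = 0.0434). Of the 4 bright probe sets, 1435477_s_at and 1455332_x_at have suffixes that mark shared or cross-hybridising probes, and the other 2 the suffix for alternative transcripts of a gene. The extracellular parts of Fcgr2b and Fcgr3 are very similar in mouse, and whether these probe sets also read Fcgr3 transcript was not tested.

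Taken in the same way, Fcgr3 minus Fcgr2b, activating against inhibitory receptor, was 0.25 higher after withdrawal, with doxycycline arrays from -0.02 to 0.02 and withdrawal arrays from 0.22 to 0.29. Fcgr2b was read here at 1435477_s_at, the bright probe set with its smallest difference (0.25, against up to 0.35 at 1435476_a_at). The gap would be smaller with any other bright Fcgr2b probe set. Fcgr3 minus the gamma chain Fcer1g was 0.32 higher, with doxycycline arrays from -0.03 to 0.02 and withdrawal arrays from 0.29 to 0.36. In both cases 3 of 3 withdrawal arrays lay above every doxycycline array, with two-sided exact permutation p = 0.1 (adjusted 0.125). For Fcgr4 minus Fcgr3 the value was -0.10, with doxycycline arrays from -0.05 to 0.03 and withdrawal arrays from -0.14 to -0.04. There the groups overlapped (two-sided exact permutation p = 0.2).

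**Figure D2:**
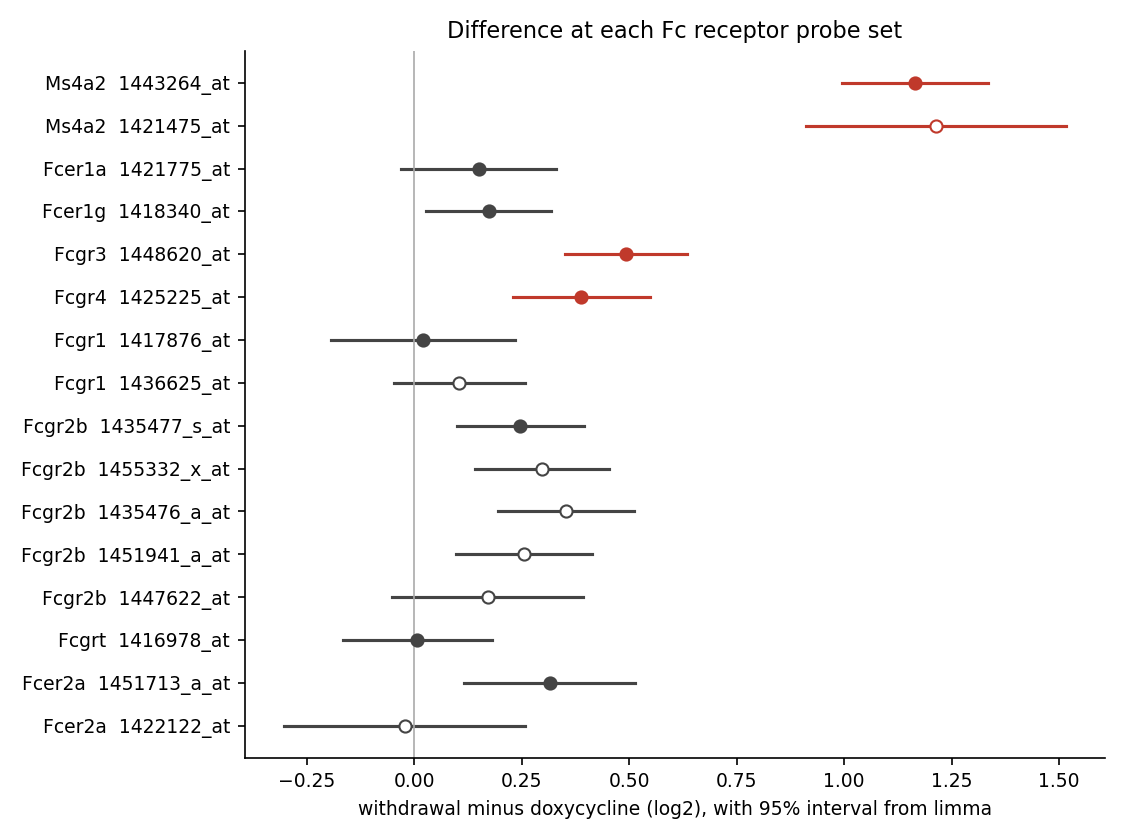
Withdrawal minus doxycycline on the log2 scale (horizontal axis) for each of the 16 probe sets, with the 95% interval of limma. Red marks an adjusted p below 0.05 and filled points the probe set of highest mean for the gene. Both Ms4a2 probe sets, at 1.16 and 1.21, lie to the right of every other, and the 4 bright Fcgr2b probe sets lie from 0.25 to 0.35.

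Fcgrt and Fcer2a did not pass. Fcgrt, the neonatal Fc receptor, read 6.20, 6.33 and 6.23 under doxycycline and 6.17, 6.30 and 6.32 after withdrawal. The groups covered the same range, and the difference was 0.01 ± 0.07 (95% interval -0.17 to 0.18, limma adjusted p = 0.979). B2m, the light chain that Fcgrt needs at the cell surface, differed by -0.07 ± 0.06 (limma adjusted p = 0.710).

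For Fcer2a, both probe sets lay below 5.24, the median of all probe sets, on every array. The one of highest mean read 3.72, 3.82 and 3.61 under doxycycline and 3.96, 3.99 and 4.15 after withdrawal, groups that did not overlap (0.32 ± 0.09, limma adjusted p = 0.138). The other differed by -0.02 ± 0.12 (limma adjusted p = 0.961), so the probe sets disagreed and no fold is given. B cell markers were also dim: Pax5, Ms4a1, Cr2, Ebf1 and Cd79a of 8 measured were below the median of all probe sets on every array.

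Of 28 measured genes that act downstream of the IgE receptor, 1 rose and 1 fell, a count close to the 1.2% and 1.57% of all genes. Differences ran from -0.43 to 0.33 with a median of 0.02, 16 of them positive and 12 negative, and 7 had an unadjusted p under 0.05 in limma. Of all 18193 genes, 2959 had such a p, the background for this count and for those of the lists that follow. Prkcb, a protein kinase C that acts in mast cell activation, rose from 10.68 ± 0.01 (SD, n = 3) to 11.01 ± 0.03 (SD, n = 3), a difference of 0.33 ± 0.06 (limma adjusted p = 0.0429). Snap23, a SNARE protein of granule exocytosis, fell by 0.38 ± 0.07 at a limma adjusted p just under the threshold (0.049995). Other probe sets of these genes did not pass. For Prkcb they differed by 0.32 and 0.06 (limma adjusted p = 0.0690 and 0.902). For Snap23 they differed by -0.32 and -0.41 (limma adjusted p = 0.0529 and 0.0631). Both calls were lost when any 1 of the 6 arrays was left out, and with arrays centred on their medians (limma adjusted p = 0.0512 and 0.0712).

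Rasgrp1, an exchange factor for Ras, differed by -0.43 ± 0.10 from a level near the median of all probe sets (limma adjusted p = 0.0869), and Stim1, the calcium sensor of the endoplasmic reticulum, by 0.32 ± 0.08 (limma adjusted p = 0.118), so neither passed. Syk, the kinase that binds the phosphorylated ITAM, differed by 0.11 ± 0.12. Its substrates, the adaptors Lat (0.21 ± 0.12) and Lcp2 (0.20 ± 0.07), did not pass either.

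Among 12 measured phosphatases, adaptors and other brakes on this pathway, 1 rose and 0 fell, and 3 had an unadjusted p under 0.05 in limma. It was Ubash3a, a protein with a phosphatase-like domain known for restraining T cell receptor signals. It read 6.79, 7.12 and 7.01 under doxycycline and 8.03, 7.76 and 7.82 after withdrawal, without overlap, a 1.86-fold rise (0.90 ± 0.11, limma adjusted p = 0.00942). Its dimmer probe set rose too (0.64, limma adjusted p = 0.0286). The call was lost without doxycycline replicate 3 (limma adjusted p = 0.0545) and without both arrays that stood apart (limma adjusted p = 0.111). Its relative Ubash3b differed by -0.04 ± 0.08.

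The phosphatases recruited by ITIM receptors did not pass: Inpp5d, the inositol phosphatase that Fcgr2b recruits, differed by -0.01 ± 0.06 and Ptpn6, the tyrosine phosphatase SHP-1, by -0.27 ± 0.08 (limma adjusted p = 0.160). Of 8 measured receptors that pair with the gamma chain, none passed in limma, while 3 had an unadjusted p under 0.05. The largest of their differences were those of the C-type lectins Clec4n (-0.27 ± 0.07) and Clec4d (-0.25 ± 0.07).

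Of 6 other ITAM adaptors, 1 fell and 0 rose, and 2 had an unadjusted p under 0.05 in limma. Cd79b, a B cell receptor chain, fell by 0.57 from a dim 5.13 to 4.56 (limma adjusted p = 0.0320), a call lost when any 1 array was left out. Tyrobp, the adaptor DAP12 of myeloid receptors, stayed at 13.96 and 13.95 (-0.01 ± 0.06). Of 10 other immunoglobulin receptors and partners, none passed in limma and 1, Trim21, had an unadjusted p under 0.05. Fcrla, Fcrl1, Fcamr, Fcmr and Pigr lay below the median of all probe sets on every array.

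The list of 14 regulators known to act on the IgE receptor genes or in mast cells held 1 rise and 1 fall. In limma 9 of the 14 had an unadjusted p under 0.05, and in 10 the groups did not overlap, 5 of them higher and 5 lower after withdrawal. Of all 18193 genes, 2959 had such a p, and groups did not overlap for 2259 higher and 2227 lower genes. Zfpm1, a cofactor of GATA1, fell by 1.56 on its probe set of highest mean, from 7.75 ± 0.11 (SD, n = 3) to 6.19 ± 0.32 (SD, n = 3) (limma adjusted p = 0.00370), whereas its dimmer probe set differed by -0.33 (limma adjusted p = 0.159). Cebpa, a factor of granulocyte development, rose by 0.74 ± 0.07 (limma adjusted p = 0.00307). Gata1 (-0.36 ± 0.10), Gata2 (0.21 ± 0.07), Spi1, which encodes PU.1 (0.27 ± 0.09), Cebpb (0.30 ± 0.08) and Mitf (-0.26 ± 0.07) did not pass, with limma adjusted p from 0.113 to 0.245. Without both arrays that stood apart, the fall of Zfpm1 still passed (limma adjusted p = 0.0224) and the rise of Cebpa did not (limma adjusted p = 0.0652).

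**Figure D3:**
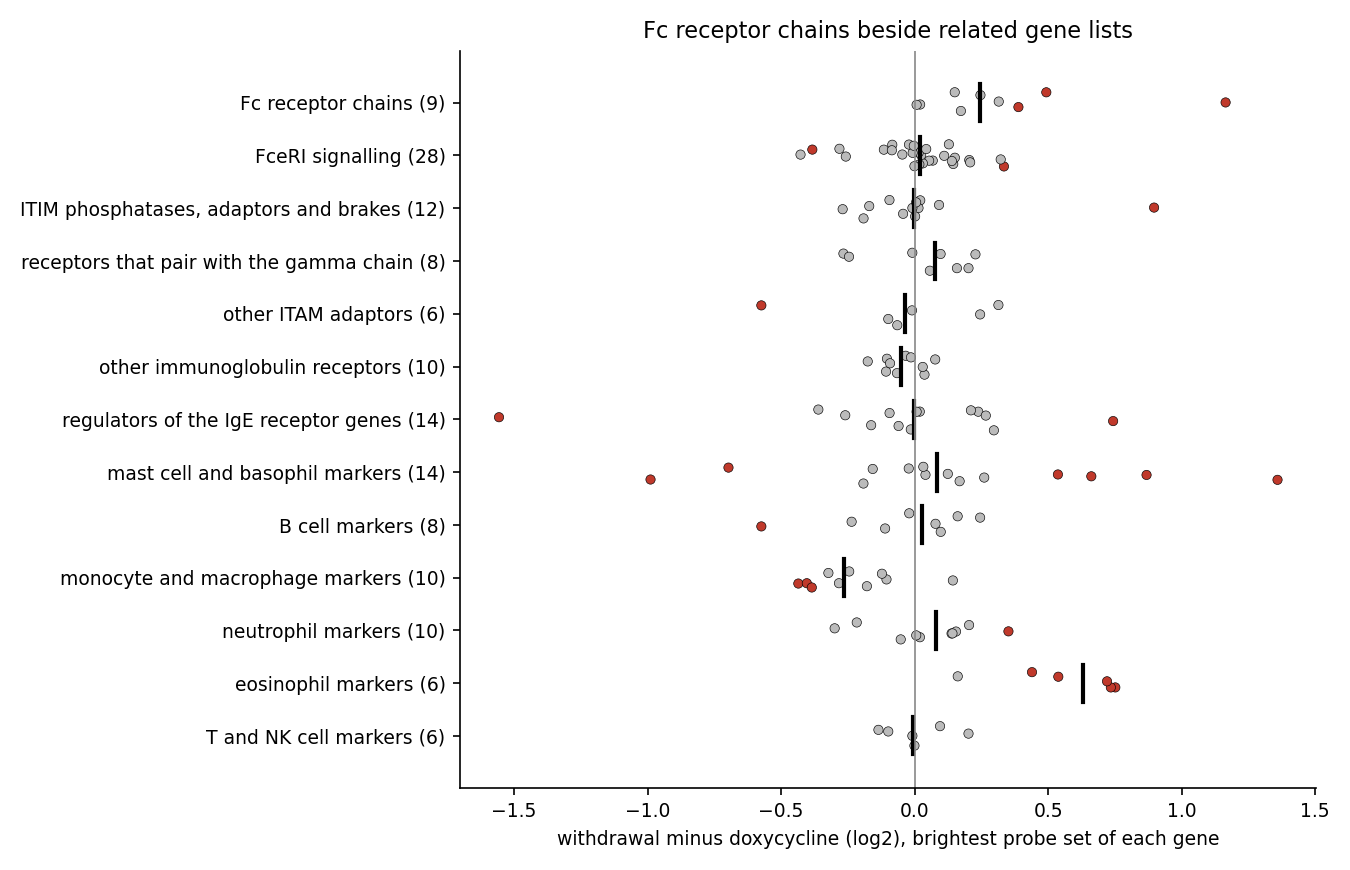
Withdrawal minus doxycycline (log2, horizontal axis) of each gene on its probe set of highest mean, for the 9 Fc receptor chains and 12 related lists, with the number of measured genes in brackets. Red points have an adjusted p below 0.05, and the black bar is the median. The Fc receptor chains have a median of 0.25, the IgE receptor signalling list 0.02 and the monocyte and macrophage markers -0.26.

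Markers of the cell types that carry these receptors moved in different directions. Of 14 mast cell and basophil markers, 4 rose (Mcpt8 by 1.36, Il4 by 0.87, Hdc by 0.66 and Cd200r3 by 0.54) and 2 fell (Mcpt2, -0.99, and Slc18a2, -0.70). Among the rises, the call was lost in 0 of 16 alternatives for Mcpt8, 1 of 16 for Il4, 1 of 15 for Hdc and 8 of 16 for Cd200r3. Among the falls it was lost in 5 of 15 for Mcpt2 and 4 of 16 for Slc18a2. The median difference over the 14 was 0.08, with 5 negative. Their summed level, which rests mostly on bright genes such as Mcpt8 (12.20 and 13.56), taken on the linear scale, was 20957 to 21748 under doxycycline and 30993 to 32071 after withdrawal. The mast cell tryptase Tpsab1, the proteases Mcpt1 and Mcpt4 and the integrin Itga2 were below the median of all probe sets on every array, whereas Cpa3, a protease of mast cells and basophils, was bright in both groups (13.51 and 13.64). Of 6 eosinophil markers 5 rose (Epx by 0.75, Prg3 by 0.74, Siglecf by 0.72, the dim Il5ra by 0.54 and Prg2 by 0.44) and 0 fell. Their sums were 8979 to 9537 under doxycycline and 13077 to 13618 after withdrawal. The call was lost in 9 of 15 alternatives for Il5ra and 8 of 16 for Prg2, and 3 to 4 markers were called with 1 array left out. The eosinophil chemokine receptor Ccr3 and the receptor chain Il5ra were below the median throughout.

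Of 10 monocyte and macrophage markers, 0 rose and 3 fell (Mpeg1, Cd68 and Csf1r, the last on 1 of its 3 probe sets), with sums of 11401 to 11479 under doxycycline and 9146 to 9545 after withdrawal. The other 7 did not pass. Of the 10, 9 had a negative difference (8366 of all 18193 genes). In 8 the withdrawal arrays lay below the doxycycline arrays (2227 of all genes). Cd14, the lipopolysaccharide co-receptor, was the only 1 with a positive difference (0.14), and its withdrawal arrays lay above the doxycycline arrays. Cx3cr1 was below the median throughout. Of 10 neutrophil markers 1 rose (Camp) and 0 fell, with sums of 138607 to 141179 and 148715 to 150450. The sums rest mostly on very bright genes such as S100a9 (15.14 and 15.16). The Camp call was lost when any 1 array was left out (limma adjusted p from 0.0932 to 0.166). Of the 10, 7 differences were positive and 3 negative. Groups did not overlap for 4 higher and 2 lower markers (Mmp8, -0.30, and Mmp9, -0.22), against 2259 and 2227 of all 18193 genes. B cell sums were 250.4 to 264.4 and 245.3 to 252.0, with 1 fall (Cd79b), and T and NK cell sums were 238 to 248 and 239 to 255, with no marker called in limma and none at an unadjusted p under 0.05. Cd3g, Ncr1 and Klrk1 of 6 T and NK cell markers were below the median on every array. The part of these cell types in the Fc receptor differences was not tested. Without both arrays that stood apart, the counts over these 6 lists fell to 1 rise, in the mast cell and basophil list, and 0 falls.

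Transcripts with the most similar course over the 6 arrays were sought among 7992 other genes with a mean of at least 7, by the root mean square difference of values centred on each gene's mean. For Ms4a2 they were Cst7, which encodes cystatin F (0.083), the histone gene H3c7 (0.085), the granule protein gene Nkg7 (0.088) and Mcpt8, a basophil protease (0.118). Their own differences were 1.08, 1.12, 1.32 and 1.36. For Fcgr3 they were Anxa3, an annexin (0.028), Abhd5, a lipase activator (0.028), Prg2, the eosinophil major basic protein (0.032), and the chemokine gene Ccl3 (0.033). For Fcgr4 they were Clec4a2, an inhibitory lectin receptor (0.023), the cathelicidin gene Camp (0.025), Ttpal (0.027) and Tma16 (0.030). This is a description over 6 arrays in 2 groups, so any gene with a difference of similar size ranks high.

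Several of these genes are neighbours. In the RefSeq gene order Fcgr2b, Fcgr4 and Fcgr3 follow each other on chromosome 1, where Fcer1g and Fcer1a also lie. All 3 of the adjacent genes had withdrawal arrays above the doxycycline arrays (0.25, 0.39 and 0.49), of which Fcgr4 and Fcgr3 passed. On either side of them, the next named genes, Fcrla (-0.03 ± 0.10, below the median of all probe sets) and Cfap126 (0.28 ± 0.12, limma adjusted p = 0.338), did not pass. Ms4a2 lies on chromosome 19 between Ms4a6d (-0.26 ± 0.07, limma adjusted p = 0.125) and Ms4a3 (0.29 ± 0.07, limma adjusted p = 0.113), members of the same gene family whose differences had opposite signs and did not pass. Apoa2 beside Fcer1g differed by 0.18 ± 0.07 (limma adjusted p = 0.309).

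**Figure D4:**
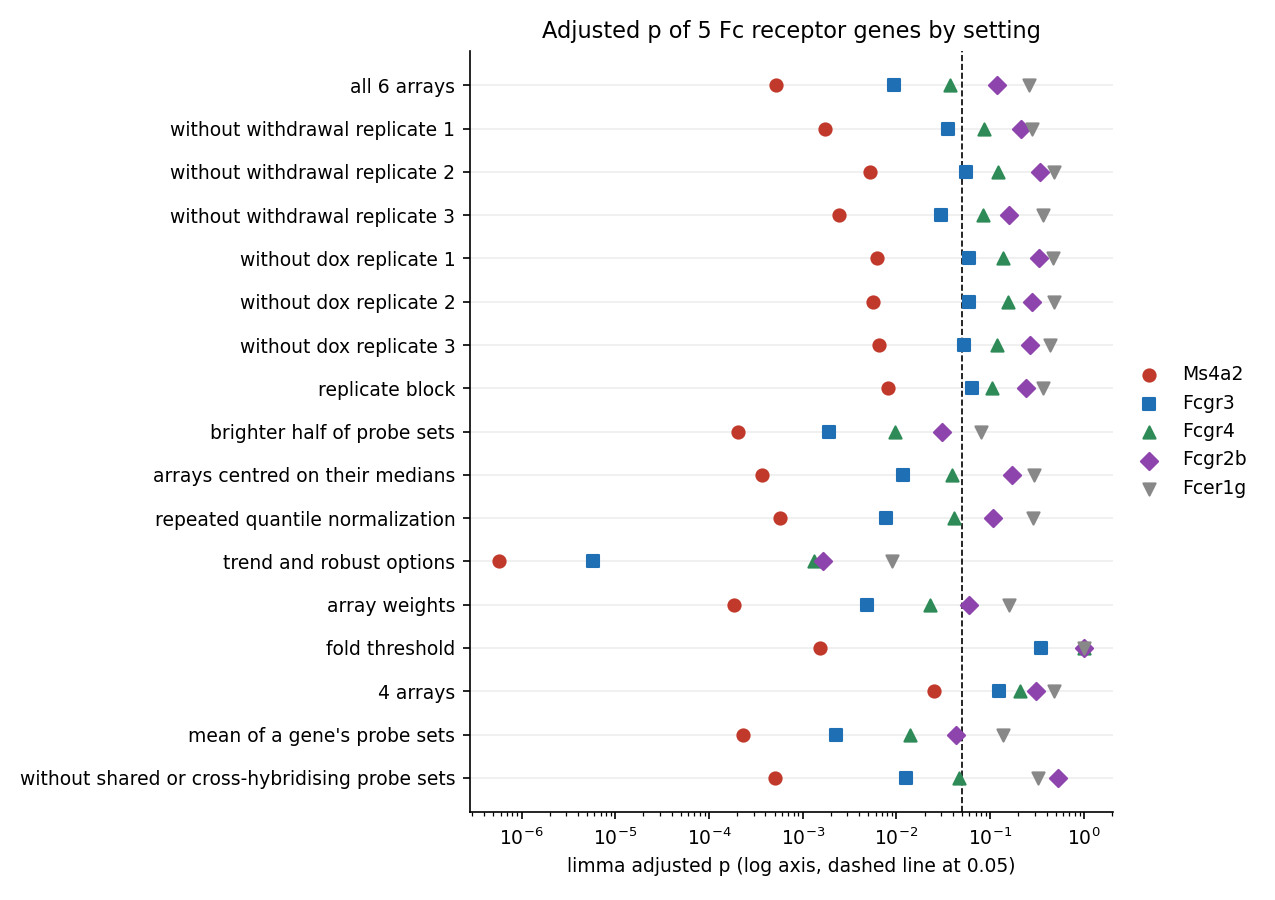
Limma adjusted p (log axis, dashed line at 0.05) of 5 Fc receptor genes with all 6 arrays and under 16 alternative settings (vertical axis). Ms4a2 stays left of the line in each, from 5.79e-07 to 0.0253, Fcgr3 in 9 and Fcgr4 in 7 of the 16 alternatives, and Fcgr2b passes in 3 and Fcer1g in 1.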

How the data were processed

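Expression was measured on 6 mouse arrays with biotin-labelled cDNA amplified from total RNA, per the labels' protocols. Values per probe set are log2 expression as deposited, made by the authors with RMA per the submitters' processing notes. For the RMA version, the chip definition and filters, details are not given in the sources. Scanner files were not analysed here. RMA compresses differences near the floor and removes shifts shared by most transcripts.

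Of 45101 probe sets, 64 controls were left out. The remaining 45037 were fitted with lmFit and eBayes of limma 3.58.1 (R 4.3.3) on all 6 arrays without covariates (4 residual and 3.54 prior degrees of freedom), with two-sided p-values adjusted by Benjamini-Hochberg over all 45037 and a threshold of 0.05. The annotation gave 34945 probe sets 1 symbol, 932 several and 9160 none. Genes were read from the probe set of highest mean over the 6 arrays. The 12 lists (154 symbols, 128 measured) were written from general knowledge, and members and lists were chosen with earlier results of these data known. Named genes were all members, up to 4 passing and 2 other genes of each list with the smallest adjusted p or largest difference, any gene of a list of at most 15, the 4 most similar genes of each member that passed and the nearest named neighbours. Mecom, Syk, Lat, Lcp2 and, of the longer marker list, further called or dim genes were named outside this rule, after their values were seen. A simulation drew independent normal noise around the mean of each of the 45037 probe sets. It put 100 changes of 1 log2 unit and 100 of 0.5 only into probe sets brighter than the median. Of these, 91% of those of 1 unit and 44% of those of 0.5 were recovered, with 5 false among 140 calls. Dim probe sets received no change, so the rates do not cover them. Variation that many probe sets of an array share was not simulated, so the rates may differ for these arrays. All 9 genes were found among RefSeq start regions (GRCm38.p6). Alternatives were each array left out, the replicate number as a block, both arrays that stood apart left out, a filter on dim probe sets, median centring, repeated quantile normalization, trend and robust options, array weights, a minimum fold of 1.2, the mean over all probe sets of a gene, and no probe sets with the suffixes of shared, cross-hybridising or alternative-transcript probes. Figures used matplotlib 3.10.9 in Python 3.11.15.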

Additional observations from a re-analysis of the deposited data

How the results depend on the processing

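With all 6 arrays, 3 of the 9 genes, 4 of the 16 probe sets and 886 of all probe sets were called in limma, and of the signalling list 1 gene was higher and 1 lower. No Fc receptor gene or probe set was called lower under any alternative. Leaving out 1 array at a time left 1 to 2 genes, 2 to 3 probe sets and 261 to 572 of all probe sets called, and 0 to 0 signalling genes in either direction, from fewer samples. Whether the replicate numbers pair the samples cannot be told from the 3 correlations of same-numbered deviations (-0.30, 0.46 and -0.03). With the replicate number as a block, 1 gene, 2 probe sets, 291 of all probe sets and 0 signalling genes were called, with limma adjusted p of 0.00821 for Ms4a2, 0.0635 for Fcgr3 and 0.105 for Fcgr4. Without both arrays that stood apart, the counts were 1, 1, 122 and 0, again from fewer samples, and with a minimum fold of 1.2 they were 1, 2, 187 and 0. Median centring called 751 of all probe sets and 0 signalling genes in either direction. Trend and robust options called 5 genes, 9 probe sets and 2460 of all probe sets, with 3 signalling genes higher and 2 lower. Among the brighter probe sets alone, 8 of the 13 then tested and 1944 in all were called, and array weights called 1720, with 2 signalling genes higher and 2 lower in each. With probe sets averaged per gene, 0 signalling genes were higher. Signs turned only for genes that had not passed: Fcgr1 was -0.0454 with array weights and ranged from -0.0631 to 0.0949 with 1 array left out, Fcgrt was -0.0491 without both arrays and ranged from -0.0212 to 0.0536, and Fcer2a was -0.0223 with the suffixed probe sets left out. Where a call was lost or gained under centring, trend options or array weights, the cause was not tested. The number of arrays limits the precision, and dim probe sets such as those of Fcer2a allow no firm statement.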
